A study of Mus musculus with 6 samples.

Results

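Genes for secreted or surface-bound defence proteins of the gut lining were followed in the colonic crypts of mice given an EZH2 inhibitor. These were 9 genes, *Mptx1*, *Mptx2*, *Dmbt1*, *Ang4*, *Retnlb*, *Lypd8*, *Lyz1*, *Defa24* and *Itln1*. They were chosen by name as antimicrobial and Paneth-type products, with the difference in RNA level between these same mice already known, so this difference is given as a description that supports nothing further, with no p-value for any member. All 9 were found among the 18049 genes of the table. Total RNA was sequenced from the crypts of 3 Control and 3 GSK503-treated mice of a Lynch syndrome model, with 1 library per mouse. All 6 mice carry Cre recombinase under the Villin promoter, which is active in the intestinal epithelium, and a humanized TGF-β receptor II. GSK503, a small molecule that inhibits the histone methyltransferase EZH2, was injected into the tail vein at 200 μg/kg in PBS, and control mice received 20% captisol in PBS. The ages of the mice are not given in the sources used here.

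The gut epithelium keeps microbes at a distance with mucus and with proteins that kill, bind or clump them. In the mouse small intestine much of this output comes from Paneth cells at the crypt base, which store α-defensins, lysozyme, angiogenin 4 and lectins in granules. The colon normally lacks Paneth cells, and its goblet cells, deep crypt secretory cells and absorptive cells make proteins such as resistin-like molecule β, mucosal pentraxin 1 and LYPD8.

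Several members have close relatives, and the sequences below show how little separates some of them within the 76 bases of a read. They come from the GENCODE transcripts of GRCm39, cover the first 76 coding bases, and are written with the bases that differ between the 2 genes in capitals.
Mptx1: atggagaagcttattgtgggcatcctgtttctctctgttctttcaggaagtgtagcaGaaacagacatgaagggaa
Mptx2: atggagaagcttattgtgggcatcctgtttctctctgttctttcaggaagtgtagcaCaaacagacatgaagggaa
Defa24: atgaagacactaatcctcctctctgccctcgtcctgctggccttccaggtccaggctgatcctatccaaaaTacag
Defa30: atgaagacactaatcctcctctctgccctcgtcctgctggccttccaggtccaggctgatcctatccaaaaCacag
Lyz1: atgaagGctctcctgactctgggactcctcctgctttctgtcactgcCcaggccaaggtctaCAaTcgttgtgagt
Lyz2: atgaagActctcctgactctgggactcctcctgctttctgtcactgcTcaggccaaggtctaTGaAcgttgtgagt

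Over the whole coding sequence, *Mptx1* and *Mptx2* were 91.9% identical, *Lyz1* and *Lyz2* 95.1%, and *Defa24* and *Defa30* 98.6%. Of all 76-base windows of a gene's transcripts, 9.81% of those of *Mptx1* also occurred in *Mptx2*, 9.97% of those of *Defa24* in *Defa30*, and 5.07% of those of *Lyz1* in *Lyz2*. A read from such a window cannot be assigned to 1 gene by its own sequence. The reads were paired, and the other read of a pair may differ between the genes, which the share of windows leaves out. The share of windows does not bound the uncertainty of a low gene beside a high relative. The value of *Mptx2* could therefore depend largely on how the counting divided such reads, and those of *Lyz1* and *Defa24* are uncertain too. *Retnlb*, *Dmbt1*, *Lypd8* and *Itln1* shared no window with another gene, and *Ang4* shared 0.829% of its windows with other genes. The row of *Itln1* held the same values as that of *Itlnb* in every library, so these are 1 measurement under 2 symbols.

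The promoters of the pentraxin pair are shown because both genes were higher in every GSK503-treated mouse than in every control mouse. For *Mptx2* this rests on few counts, which could depend on reads shared with *Mptx1*. No link between the promoters and these values was tested. They are the RefSeq promoter windows of GRCm38.p6, 250 bases before to 50 after the annotated start, at chr1:174330268-174330567 on the plus strand for *Mptx1* and at chr1:173277707-173278006 on the minus strand for *Mptx2*. Capitals mark bases that differ or have no partner in the alignment.
Mptx1: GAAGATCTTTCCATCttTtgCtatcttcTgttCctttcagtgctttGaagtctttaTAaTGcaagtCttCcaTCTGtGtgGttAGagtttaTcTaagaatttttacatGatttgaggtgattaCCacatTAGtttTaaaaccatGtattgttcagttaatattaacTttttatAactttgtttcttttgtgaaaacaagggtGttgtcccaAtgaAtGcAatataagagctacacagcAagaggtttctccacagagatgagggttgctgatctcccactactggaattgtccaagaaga
Mptx2: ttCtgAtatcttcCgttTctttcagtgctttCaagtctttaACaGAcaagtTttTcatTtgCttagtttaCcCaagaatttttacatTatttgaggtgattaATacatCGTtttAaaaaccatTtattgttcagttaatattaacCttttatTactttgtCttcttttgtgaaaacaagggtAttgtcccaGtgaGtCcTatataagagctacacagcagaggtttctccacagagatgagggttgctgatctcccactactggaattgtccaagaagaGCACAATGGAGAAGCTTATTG

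Of the 278 positions where both had a base, 248 were identical (89.2%). Promoter windows were found for 6 members, 7 windows in all because *Lypd8* has 2. They held few CpG dinucleotides, the sites of DNA methylation, with none in the *Mptx1* and *Itln1* windows, 2 in *Mptx2*, 2 in *Lyz1* and 5 in *Ang4*. The 2 *Lypd8* windows held 1 and 12. The median ratio of observed to expected CpG was 0.136 over the 7 windows and 0.384 over all 32851 RefSeq promoter windows. The letters TATAA, on either strand, were present in 4 of the 7 windows and in 24.9% of all windows. CAGCTG, one form of the E-box bound by basic helix-loop-helix factors such as ATOH1, was present in 2 of the 7 (*Lyz1* and *Lypd8*) and in 16.3% of all windows. TTCNNNGAA, a motif of STAT factors, was present in 1 of the 7 (*Ang4*) and in 8.30% of all windows.

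The deposited values are estimated counts scaled by the TMM method to a common library size (CPM), and a difference is given as the log2 difference of value + 0.1 with its standard error (SE) from limma. Estimated totals lay between 108161308 and 135083324 counts per library, and 3 counts corresponded to between 0.0228 and 0.0271 CPM, a floor that covers counting error only. *Xist*, the X-inactivation RNA, had a mean of 0.72 CPM in control mice and 1014 CPM in treated mice, and the Y-linked *Uty* 47.3 and 0.94 CPM. The libraries of the 2 groups thus carry the RNA pattern of different sexes, and for every value below the treatment and the sex of the mice cannot be told apart. The vehicles as described also differed between the groups, and their part cannot be told apart from the treatment either. *Ezh2*, the drug's target, had a mean of 43.6 ± 5.29 CPM (SD, n = 3) in control mice and 36.0 ± 0.769 CPM (SD, n = 3) in treated mice, with a log2 difference of -0.27 (limma adjusted p = 0.291).

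Of the 9 members, 7 averaged higher with GSK503 and 2, *Dmbt1* and *Lyz1*, averaged lower. For *Mptx1*, *Mptx2*, *Ang4*, *Retnlb*, *Defa24* and *Itln1*, the 3 treated values all exceeded the 3 control values, as they did for 9.84% of the 16670 genes tested (19.1% in either direction). For *Dmbt1* all 3 treated mice lay below the controls, as for 9.22% of genes. *Ang4*, *Retnlb* and *Itln1* passed an adjusted p of 0.05, as 0.498% of all genes did in the higher direction. Leaving out control mouse 1 added *Mptx1* to the 3, whereas leaving out any of the other 5 libraries left *Retnlb* alone. Because this same contrast was known when the members were listed, nothing is read from these counts. The median log2 difference was 1.88 over the members and -0.01 over all genes tested. All 9 passed the filter of at least 0.1 CPM in 3 libraries, *Defa24* through the treated mice alone and *Mptx2* through the treated mice and 1 control mouse. In RNA of whole crypts, more cells of a type and more RNA per cell cannot be told apart.

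**Figure D1:**
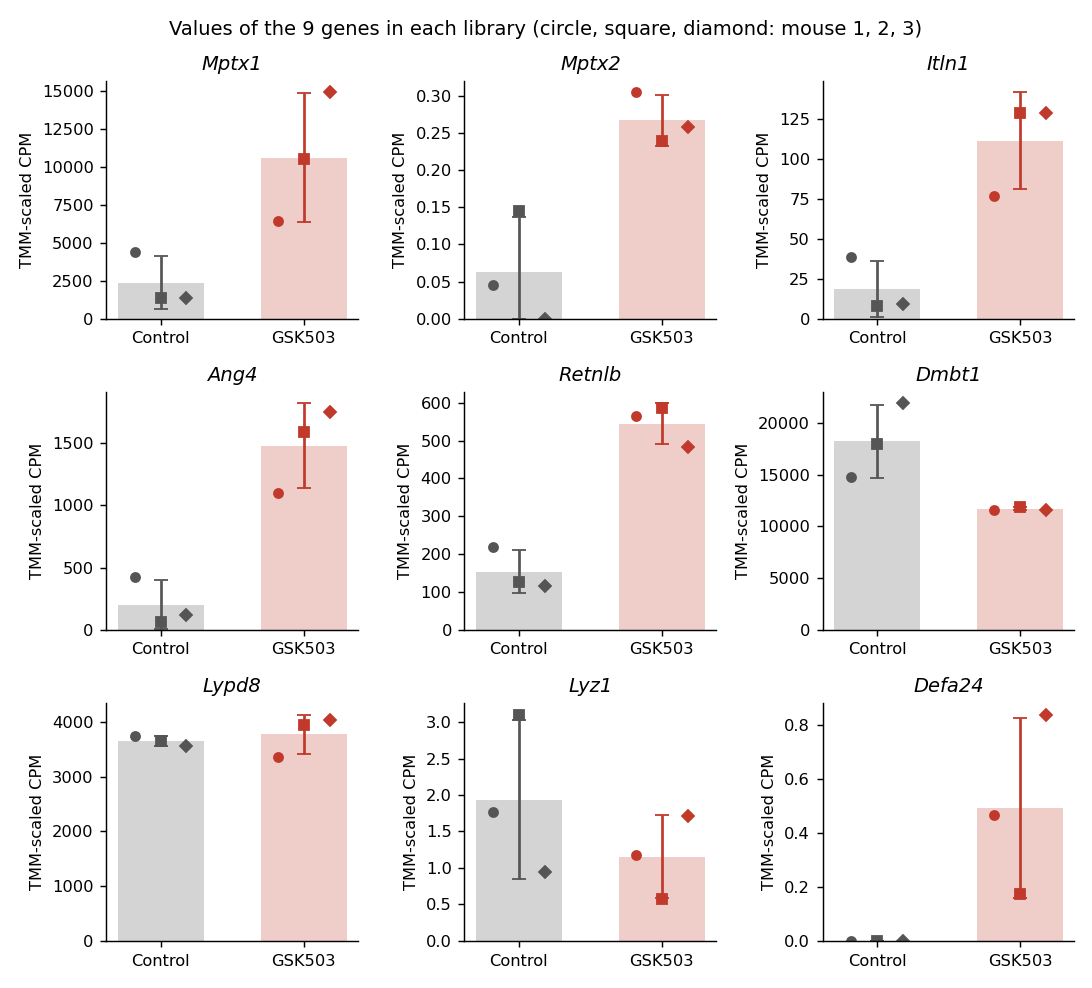
Value of each of the 9 genes in every library, in TMM-scaled CPM on a linear axis from 0 that differs between panels. Bars show the mean of 3 mice, error bars the SD (cut at 0), and symbols single mice. *Ang4*, *Itln1*, *Retnlb* and *Mptx1* stand apart between the groups at high values, *Mptx2* and *Defa24* do so below 1 CPM, and *Lypd8* and *Lyz1* overlap.

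The mucosal pentraxins belong to the family of C-reactive protein and serum amyloid P, ring-shaped proteins that bind microbial surfaces. *Mptx1*, on chromosome 1 of GRCm39 from 174158084 to 174160439, had values of 4403, 1372 and 1369 CPM in control mice 1, 2 and 3 and of 6436, 10496 and 14924 CPM in treated mice 1, 2 and 3. The groups did not overlap, but control mouse 1 lay nearer to the lowest treated mouse than to the other controls. The mean was 4.46-fold higher in treated mice (2381 ± 1751 against 10619 ± 4245 CPM, SD, n = 3 each), with a log2 difference of 2.31 (SE 0.45). It ranged from 2.02 without treated mouse 3 to 2.87 without control mouse 1. *Mptx2*, the Paneth cell pentraxin of the small intestine, lies on chromosome 1 from 173101949 to 173105344 and was barely detected, with 6, 16 and 0 estimated counts in the control mice against 36, 30 and 31 in the treated mice. In CPM these were 0.0457, 0.145 and 0 against 0.305, 0.239 and 0.258. Its log2 difference of 1.26 (SE 0.49) depended on the pseudocount and ranged from 0.26 with a pseudocount of 1 to 2.64 with 0.01. *Mptx1* was 96407-fold and 9480-fold above *Mptx2* in control mice 1 and 2, and 21092-, 43922- and 57858-fold above it in treated mice 1, 2 and 3 (CPM of transcripts of nearly equal length), while control mouse 3 had no *Mptx2* count. *Mptx2* therefore did not stand in 1 constant ratio to *Mptx1* over the libraries, and whether its reads came from *Mptx1* was not tested further.

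Intelectin 1 is a lectin that binds sugars exposed on microbes and is made by Paneth and goblet cells. *Itln1*, on chromosome 1 from 171345690 to 171368943, had values of 38.7, 7.62 and 9.01 CPM in the control mice against 76.6, 129 and 129 CPM in the treated mice. Its mean was 6.03-fold higher in treated mice (18.4 ± 17.6 against 111 ± 30.1 CPM, SD, n = 3 each), with a log2 difference of 2.95 (SE 0.51) and a range of 2.53 to 3.69 with 1 library left out. Control mouse 1 was 5.08-fold above the lowest control mouse and still below every treated mouse.

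Angiogenin 4 is a ribonuclease of Paneth cell granules that kills bacteria. *Ang4*, on chromosome 14 from 51990721 to 52011053, had values of 424, 59.2 and 118 CPM in the control mice against 1098, 1592 and 1750 CPM in the treated mice. Its mean was 7.38-fold higher in treated mice (200.5 ± 196 against 1480.0 ± 340.3 CPM, SD, n = 3 each), with a log2 difference of 3.34 (SE 0.56) and a range of 2.697 to 4.12 with 1 library left out. The control mice themselves differed 7.16-fold, more than the 1.59-fold among treated mice. Its relative *Ang* stayed between 12.2 and 14.8 CPM over all 6 libraries, with a log2 difference of 0.12 (limma adjusted p = 0.715).

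Resistin-like molecule β is secreted by goblet cells into the lumen, where it acts on Gram-negative bacteria, and is known to respond to IL-13. *Retnlb*, on chromosome 16 from 48637219 to 48639255, had values of 218, 125 and 116 CPM in the control mice against 564, 586 and 484 CPM in the treated mice. Every treated mouse was above every control, and the mean was 3.56-fold higher (153 ± 56.6 against 544 ± 53.4 CPM, SD, n = 3 each). The log2 difference was 1.88 (SE 0.21) and ranged from 1.71 to 2.17 with 1 library left out. *Retnla*, its relative, stayed at or below 0.433 CPM in all 6 libraries.

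Deleted in malignant brain tumors 1 is a large secreted scavenger receptor that binds bacteria and is abundant in the epithelium. *Dmbt1*, on chromosome 7 from 130633776 to 130723357, had values of 14794, 18025 and 21898 CPM in the control mice against 11619, 11881 and 11607 CPM in the treated mice. It was thus the member that went the other way at a high level, with a log2 difference of -0.62 (SE 0.25) and a range of -0.76 to -0.48 with 1 library left out. The treated mice were nearly alike (11703 ± 155 CPM, SD, n = 3), whereas the control mice varied (18239 ± 3557 CPM, SD, n = 3). LYPD8 is anchored on the surface of colonic epithelial cells and binds flagella of bacteria. *Lypd8*, on chromosome 11 from 58269863 to 58281554, had values of 3751, 3650 and 3562 CPM in the control mice against 3367, 3937 and 4028 CPM in the treated mice. The groups overlapped, and the log2 difference of 0.04 (SE 0.14) did not exceed the spread between libraries and took the other sign, at -0.071, when the libraries were scaled to the same sum, which lowered the median of all genes alike, to -0.12.

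Lysozyme 1 and the α-defensins are the classical granule proteins of Paneth cells. *Lyz1*, on chromosome 10 from 117123698 to 117128775, was at 1.77, 3.10 and 0.941 CPM in the control mice against 1.17, 0.578 and 1.71 CPM in the treated mice. The groups overlapped, with a log2 difference of -0.67 (SE 0.48). *Lyz2*, the lysozyme of macrophages that shares part of its sequence, was at 11.9, 24.3 and 11.2 CPM in the control mice against 1.59, 1.65 and 30.9 CPM in the treated mice. *Lyz1* was highest in the library with the highest *Lyz2* among the treated mice and among the controls alike. How far *Lyz2* reads contribute to *Lyz1* was not tested.

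*Defa24*, on chromosome 8 from 22224506 to 22225490, was at 0 in all 3 control mice and at 0.466, 0.175 and 0.84 CPM in the treated mice, from 55, 22 and 101 estimated counts. Against a floor of 3 counts in the control library with the highest floor, GSK503 libraries averaged at least 18.2-fold higher. The fitted log2 difference of 2.40 (SE 0.54) followed the pseudocount, from 0.56 with a pseudocount of 1 to 5.40 with 0.01, and is no bound. *Defa30*, its near copy, was at 0 in all control mice and at 0, 0.0558 and 0.0915 CPM in the treated mice. *Defa17* was at 0.0472 CPM in control mouse 3, at 0 in the other controls, at 0.797 and 0.239 CPM in treated mice 1 and 2 and at 0 in treated mouse 3, and *Defa3* was at 1.12 CPM in treated mouse 3 alone. *Defa20*, *Defa22* and *Defa23* were listed at 0 in all 6 libraries. Reads of near-identical defensins may have been divided among these genes by the counting.

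**Figure D2:**
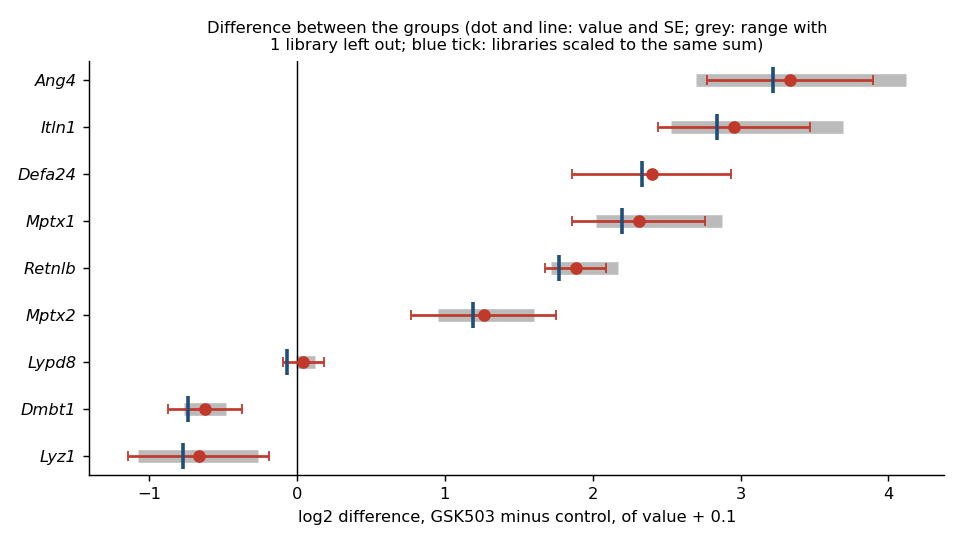
Log2 difference of each member between GSK503-treated and control mice (dot) with its SE (line), the range obtained with 1 library left out (grey) and the value with libraries scaled to the same sum (blue tick). *Ang4*, *Itln1*, *Mptx1* and *Retnlb* lie above 1 throughout, *Lypd8* crosses 0, and *Defa24*, fitted only with a control library left out, kept the same value there.

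Per kilobase of transcript, where levels can be set beside each other, the members covered a wide range. In the control mice *Mptx1*, *Dmbt1* and *Lypd8* had means of 2980, 2908 and 2833 CPM per kilobase, so close that their order did not exceed the spread between mice. In the treated mice *Mptx1* had 13290 CPM per kilobase, above *Lypd8* at 2928, *Ang4* at 2070 and *Dmbt1* at 1866. *Retnlb* followed with 220 in control and 782 in treated mice, and *Itln1* with 16.2 and 97.5. *Lyz1*, *Mptx2* and *Defa24* were at or below 1.53 CPM per kilobase in both groups. Together the 9 genes took between 2.38% and 2.78% of a control library and between 2.17% and 3.18% of a treated one, ranges that overlapped.

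Within the groups, several members moved with the same mice. Control mouse 1 was the highest control for *Mptx1*, *Ang4*, *Retnlb*, *Lypd8* and *Itln1* and the lowest for *Dmbt1*. Treated mouse 1 was the lowest treated mouse for *Mptx1*, *Ang4*, *Lypd8* and *Itln1*, and treated mouse 3 the highest for *Mptx1*, *Ang4*, *Lypd8*, *Lyz1* and *Defa24*. The goblet cell gene *Clca1* showed the same control order at its top, with 7984, 3147 and 3460 CPM in the control mice against 15898, 25628 and 30267 CPM in the treated mice. *Reg3b*, an antimicrobial lectin of enterocytes, went the other way in control mouse 1, with 453, 3415 and 2158 CPM in the control mice against 712, 1189 and 1388 CPM in the treated mice. The genes whose deviations from the group means were most like the average deviation of the members were *Bicd2*, *Tmem171*, *Sirt5*, *Zfp330* and *Trmt10b*, with Pearson's r between 0.992 and 0.995 over 6 libraries. These correlations are the highest of many genes over few libraries and are given as a description only.

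**Figure D3:**
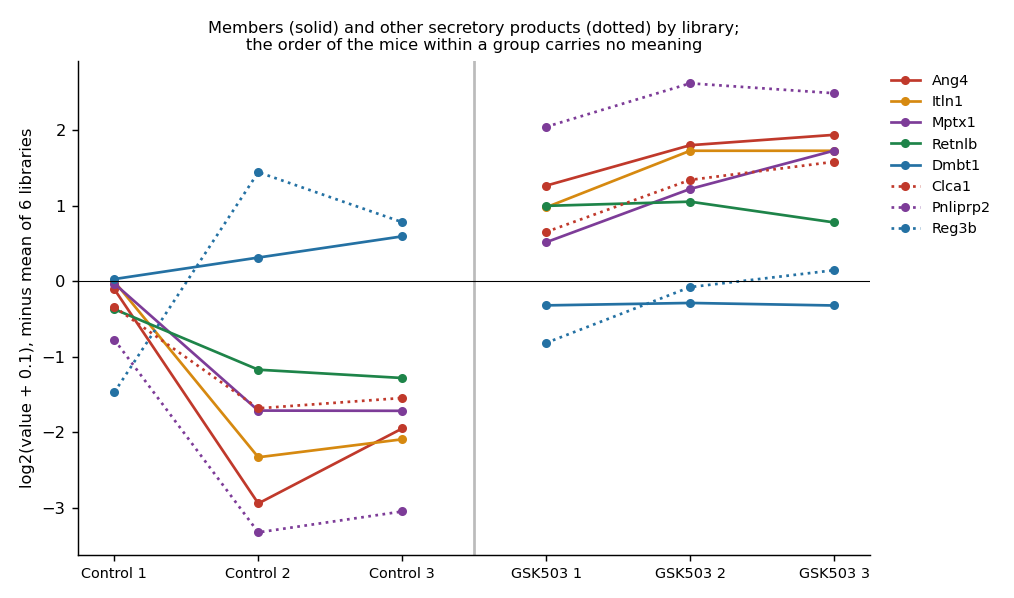
Log2(value + 0.1) of 5 members (solid) and of *Clca1*, *Pnliprp2* and *Reg3b* (dotted) in each library, relative to the mean over the 6 libraries. *Ang4*, *Itln1*, *Mptx1*, *Retnlb*, *Clca1* and *Pnliprp2* are highest among controls in control mouse 1 and higher still in the treated mice, while *Dmbt1* and *Reg3b* are lowest in control mouse 1 among controls.

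The neighbouring pathways were followed through 6 lists of genes, members left out, written with earlier results of these data known. Of their 85 tested genes, 5 rose and 3 fell at a limma adjusted p below 0.05 (9.41%), against 0.642% of all genes. Because these results were known when the lists were written, nothing is read from this share. Among 9 tested Paneth cell products and enzymes, 3 rose, none fell, and the median log2 difference was 0.56. *Pnliprp2*, a lipase of secretory granules, rose from a mean of 3.73 to 75.4 CPM, a log2 difference of 4.77 (SE 0.55, limma adjusted p = 0.00546). Colipase, encoded by *Clps*, rose by 2.48 (SE 0.33, limma adjusted p = 0.0136). *Copz2*, a coat protein of transport vesicles, rose by 0.97 (SE 0.18, limma adjusted p = 0.0499). *Cd24a*, the gene of this list with the highest mean CPM, had a log2 difference of 0.38 (limma adjusted p = 0.143), and *Mmp7*, the protease that processes α-defensins, one of 0.56 (limma adjusted p = 0.563). *Habp2* and *Nupr1*, also of this list, went the other way, with -0.40 (limma adjusted p = 0.741) and -0.09 (limma adjusted p = 0.835). With 1 library left out, *Pnliprp2* kept its call in all 6 fits, *Clps* lost it without treated mouse 2, and *Copz2* lost it in all 6. All 3 lost it without the intensity trend in limma's variance, and *Clps* and *Copz2* also with the replicate number as a block.

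Among 17 other antimicrobial and defence genes, 2 fell, none rose, and the median log2 difference was -0.34. For 4 of the 17 all treated values lay below the controls and for 1 above, against 9.22% and 9.84% of all genes. At an unadjusted p below 0.05 limma gave 5 of the 17, and 2223 of all 16670 genes tested. Lipocalin 2, encoded by *Lcn2*, which withholds iron from bacteria, fell by 1.87 on the log2 scale (SE 0.26, limma adjusted p = 0.0157), from a mean of 2.59 to 0.64 CPM. Lactoferrin, encoded by *Ltf*, also an iron-binding protein, fell by 1.49 (SE 0.27, limma adjusted p = 0.0474), from 3.16 to 1.07 CPM. Both lost the call when any 1 library other than treated mouse 3 was left out, and with the replicate number as a block. *Ltf* also lost it with a pseudocount of 0.01, without the filter on low values, without the intensity trend and in limma-voom. *Pigr*, the transporter of IgA and the gene with the highest mean CPM here, had a log2 difference of -0.11 (limma adjusted p = 0.836). Of 10 tested relatives of the members, 1 rose and none fell. This was *Nptx1*, a neuronal pentraxin, which rose by 2.94 (SE 0.27, limma adjusted p = 0.00146), from 1.10 to 9.19 CPM, and kept its call in all 6 fits with a library left out. *Rnase4*, the relative with the highest mean CPM, had a log2 difference of 0.02 (limma adjusted p = 0.967).

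None of 12 tested genes of the IL-4 and IL-13 pathway, the cytokine axis known to act on *Retnlb* and *Itln1*, passed the limma test, and their median log2 difference was 0.08. At an unadjusted p below 0.05 limma gave 2 of the 12, and 2223 of all 16670 genes tested. Limma-voom on recovered counts called 0 of the 12 after adjustment. *Jak1*, with the highest mean CPM of them, had a log2 difference of 0.05 (limma adjusted p = 0.819). Of 21 genes of IL-22 signalling and bacterial sensing, 1 fell and none rose, with a median of -0.15. For 5 of the 21 all treated values lay below the controls and for 1 above, against 9.22% and 9.84% of all genes. At an unadjusted p below 0.05 limma gave 6 of the 21. *Tlr1*, a receptor for bacterial lipopeptides, fell by 0.41 (SE 0.07, limma adjusted p = 0.0479), from 52.3 to 39.2 CPM, a call lost in all 6 fits with a library left out. The *Tlr1* call was also lost with a pseudocount of 0.01, without the intensity trend and with the replicate number as a block. *Stat3*, with the highest mean CPM, had a log2 difference of -0.11 (limma adjusted p = 0.713). Of 17 transcription factors of secretory and Paneth cell fate, 1 rose and none fell. For 7 of the 17 all treated values lay above the controls and for none below, against 9.84% and 9.22% of all genes. At an unadjusted p below 0.05 limma gave 7 of the 17, and limma-voom called 3 after adjustment (*Bhlha15*, *Foxa2* and *Spdef*). *Bhlha15* had a log2 difference of 1.41 and *Foxa2* one of 0.48 (limma adjusted p = 0.0505 for both). *Spdef*, which drives maturation of goblet and Paneth cells, rose by 0.68 (SE 0.12, limma adjusted p = 0.0459), from 78.3 to 124 CPM, and among the 6 fits with a library left out it was called only without control mouse 2. The *Spdef* call was also lost with a pseudocount of 1 or 0.01, with libraries scaled to the same sum, without the intensity trend and with the replicate number as a block. The median of these 17 factors was 0.06 and turned to -0.04 with libraries scaled to the same sum, where the median of all genes was -0.12. *Klf4*, with the highest mean CPM, had a log2 difference of 0.04 (limma adjusted p = 0.918).

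**Figure D4:**
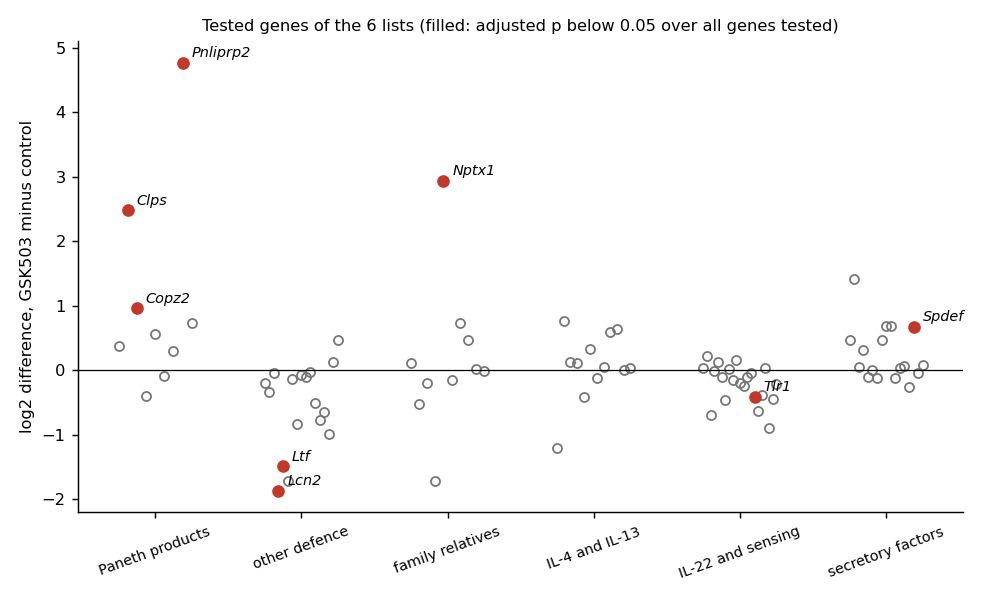
Log2 difference between GSK503-treated and control mice for the tested genes of the 6 lists, members left out, 1 dot per gene. Filled dots passed an adjusted p of 0.05 over all genes tested: 5 above 0, led by *Pnliprp2*, and 3 below, with *Lcn2* the lowest.

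Markers of other cells that the crypts could hold were summed in each library. Of 11 tested goblet cell markers, 5 rose and none fell, with a median log2 difference of 0.79, where 0.498% of all genes rose. This list too was written with earlier results of these data known, so nothing is read from its share. Without the intensity trend in limma's variance none of the 11 was called (10 had an unadjusted p below 0.05), and with the replicate number as a block 2 were (*Agr2* and *Spink4*). Leaving out treated mouse 2 reduced these 5 calls to 1 (*Spink4*), control mouse 3 to 2, and control mouse 2 to 3. Their summed value lay between 11184 and 19543 CPM in the control mice, with control mouse 1 the highest, and between 33732 and 52154 CPM in the treated mice. *Clca1*, a defining goblet cell product, rose by 2.38 (limma adjusted p = 0.0294) and *Spink4* by 1.43 (limma adjusted p = 0.00164). The part of goblet cell number in the members' values was not tested. Small intestinal enterocyte markers overlapped between the groups in their summed value, with none of 12 tested markers called by limma or limma-voom (3 and 2 at an unadjusted p below 0.05) and sums of 359 to 446 CPM in the control mice against 341 to 430 CPM in the treated mice. *Apoa4*, a defining marker of that list, was at 6.11 CPM in control mouse 2 and at or below 0.0353 CPM in the 5 other libraries. Of the 12 tested markers, 0 had all treated values above the controls and 2 had all below, against 9.84% and 9.22% of all genes. Their median log2 difference was -0.07. *Cyp3a11*, which did not pass the filter, and *Slc10a2* averaged higher in the treated mice and were picked after their values were seen. *Cyp3a11* was at 0, 0 and 0.0157 CPM in the control mice against 0.0424, 0.0797 and 0.216 CPM in the treated mice, highest like *Defa24* in treated mouse 3. *Slc10a2*, a bile acid transporter of the ileum, was at 5.63, 6.76 and 3.30 CPM in the control mice against 6.72, 12.6 and 14.5 CPM in the treated mice (limma adjusted p = 0.182), so these groups overlapped. The part of small intestinal cells in the members' values was not tested. Tuft cell markers had sums of 31.6 to 47.3 CPM in the control mice against 57.7 to 69.5 CPM in the treated mice. None of 8 was called by limma or limma-voom, and 5 had an unadjusted p below 0.05. Over all 16670 genes tested, 2223 had an unadjusted p below 0.05 in limma. Without control mouse 1, 1 of the 8 tuft cell markers (*Avil*) was called. Of 9 enteroendocrine markers, 3 fell (*Chga*, *Chgb* and *Gcg*), which became 1 or 0 with any 1 library left out.

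Markers of smooth muscle, fibroblasts, macrophages and B cells were uneven among treated mice, low in mice 1 and 2 and high in mouse 3. None of the 7, 7, 9 and 8 tested markers was called by limma or limma-voom. At an unadjusted p below 0.05 limma gave 0, 1, 1 and 5 of them, and 2223 of all 16670 genes tested. Without treated mouse 3, 3, 5, 2 and 3 of these markers were called lower. Smooth muscle markers summed to 98.7, 179 and 143 CPM in the control mice against 73.6, 81.2 and 210 CPM in the treated mice. Macrophage markers, which include *Lyz2*, summed to 89.8, 124 and 106 CPM in the control mice against 63.8, 62.0 and 116 CPM in the treated mice. *Lyz1* and *Defa24* were both highest among treated mice in mouse 3, and the part of these other cells in that order was not tested. Without treated mouse 3, *Mptx1*, *Ang4*, *Itln1* and *Retnlb* remained higher in the treated mice, with log2 differences of 2.02, 3.20, 2.83 and 1.97. Epithelial markers summed to between 11996 and 13482 CPM in the control mice and between 12990 and 15124 CPM in the treated mice, and *Epcam* and the keratins were present in all 6 libraries.

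**Figure D5:**
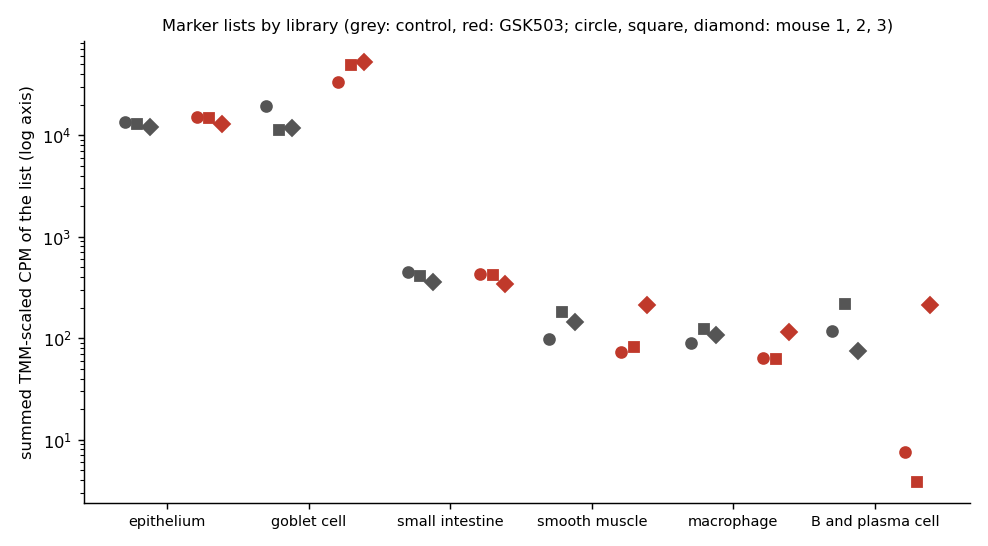
Summed TMM-scaled CPM of 6 marker lists in each library, on a log axis, with control mice in grey and GSK503-treated mice in red. Goblet cell markers are higher in all 3 treated mice, epithelial and small intestinal markers overlap, and B and plasma cell markers are lowest in treated mice 1 and 2.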

How the data were processed

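Total RNA from colonic crypts was sequenced as paired-end reads of 76 bases with a stranded kit, with 1 library per mouse. STAR (alignment to GRCm39) and RSEM (estimated counts) were run by the authors, who deposited as signal the estimated CPM after TMM scaling. Between 81.0% and 83.4% of low values in a library were whole multiples of 1 step (tolerance 0.02), from which totals were estimated, so counts are estimates.

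Groups and replicate numbers came from the sample labels. The members and the gene lists were chosen with earlier results of these data known. Because the values are not raw counts, limma 3.58.1 (R 4.3.3) was fitted to log2(value + 0.1) with an intensity trend, for 16670 genes with at least 0.1 in at least 3 libraries, with Benjamini-Hochberg adjustment over all of them. Low genes have understated differences on this scale. A gene was named if it was a member, was called at an adjusted p below 0.05 (at most 4 per list), had the highest mean of its list, shared a family and reads with a member, or was among the 5 most alike. *Mmp7*, *Habp2*, *Nupr1*, *Reg3b*, *Retnla*, *Clca1*, *Spink4*, *Agr2*, *Avil*, *Apoa4*, *Cyp3a11*, *Slc10a2*, *Bhlha15*, *Foxa2* and the enteroendocrine genes were named outside this rule, after their values were seen. Replicates are separate mice. An exact two-sided permutation test of 3 mice against 3 cannot go below p = 0.1. The test was tested on simulated data. Sequences were taken from GENCODE vM39 (GRCm39) and RefSeq (GRCm38.p6). Colonocyte, colon position, T cell and neutrophil markers were also summed, and 0 of 9, 10, 6 and 2 tested genes were called by limma or limma-voom. Of them, 3, 1, 0 and 0 had an unadjusted p below 0.05, as did 2223 of all 16670 genes tested. A further allele shared by all 6 mice is not reported here.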

Additional observations from a re-analysis of the deposited data

How the results depend on the processing

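The alternatives were other pseudocounts, other filters, libraries scaled to the same sum, no intensity trend, limma-voom on recovered counts, a replicate block and leaving out each library. Over all genes, 107 calls (83 higher, 24 lower) became 261 (83 higher, 178 lower) with libraries scaled to the same sum, where 31.8% of calls were higher against 77.6% before and the median of all genes was -0.12. They became 16 (9 and 7) without the intensity trend and 33 (23 and 10) with the replicate block. With 1 library left out they ranged from 29 to 216, with 20 to 116 higher and 7 to 100 lower. The 8 listed genes called (5 higher, 3 lower) became 4 (3 and 1) with a pseudocount of 0.01 and 2 (1 and 1, *Nptx1* and *Lcn2*) without the trend. With the replicate block they became 2 (2 and 0, *Pnliprp2* and *Nptx1*). With a pseudocount of 1, 3 were higher, and with libraries scaled to the same sum, 5 were lower. With 1 library left out they ranged from 2 to 7, with 2 to 4 higher and 0 to 4 lower. The replicate numbers did not pair the mice, since same-numbered mice had correlations of 0.03, -0.13 and -0.12 between their deviations. The number of members with a positive log2 difference, 7 of 9, was between 5 and 7 under every alternative. Part of this range came from members that did not pass the filter. With a filter of at least 1 CPM, 7 members were tested, and with any 1 treated mouse left out, 8 were. The members called, 3, became 0 without the trend, 1 with the block and 2 with a pseudocount of 0.01. Of 121 values of single members, 113 moved by less than the spread between mice, 6 moved further (*Mptx2* and *Defa24* under other pseudocounts and limma-voom) and 2 changed sign. The 2 were *Lypd8* at -0.071 with libraries scaled to the same sum and -0.0050 without treated mouse 3, in a range up to 0.12 with 1 library left out. With libraries scaled to the same sum, *Jak1* was at -0.066, *Klf4* at -0.074 and *Rnase4* at -0.091. With 1 library left out, *Klf4* ranged from -0.083 to 0.12, *Rnase4* from -0.18 to 0.13 and *Stat3* from -0.21 to 0.00060. The cause of these changes was not tested. *Mptx2* and *Defa24*, below 1 CPM in every library, rest on few counts, and the 3 mice a group limit the other members.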
